A study of Mus musculus with 5 samples.

Results

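The Hox genes encode homeodomain transcription factors that lie side by side in clusters A, B, C and D, and in the mouse these clusters are on chromosomes 6, 11, 15 and 2. The members described here were all genes of these clusters with a probe set of their own symbol on the array, which gave 37 of the 19938 genes measured in all. Cluster A had 10 members and clusters B, C and D had 9 each. Each member had 1 probe set. Hoxb8 shared its probe set with Hoxb7 and was not a member.

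Within a cluster, genes are numbered by paralog group from the end that is switched on first and furthest forward in the embryo (low numbers) to the end that is active last and furthest back (high numbers), a relation known as colinearity. Low-numbered genes pattern the hindbrain and pharyngeal arches, the middle ones the neck and thorax, and the highest-numbered ones the lumbar, sacral and tail regions, the distal limb and the urogenital tract. In undifferentiated embryonic stem cells (ESCs) the clusters carry Polycomb marks and are largely silent, and retinoic acid opens them from the low-numbered end. Connective tissue fibroblasts keep the Hox pattern of the body region they came from. Below, paralogs 1 to 3 are called anterior, 4 to 8 central and 9 to 13 posterior.

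RNA of 5 cell populations was hybridized to Affymetrix Mouse Gene 1.0 ST arrays, and the deposited log2 values of the authors were used. Parental ESCs were a B6CBAF1 line that had not been injected (1 array). The 3 kinds of ESC-like cells came from cultures of teratomas, which were removed 5 weeks after the same ESCs had been injected under the skin of B6CBAF1 mice (homologous, 1 array), of B6D2F1 mice (heterologous, 1 array), or of B6D2F1 mice together with B6D2F1 embryonic fibroblasts (co-injection, 2 arrays, called batch 1 and batch 2 in the labels). All 5 populations were grown on inactivated ICR embryonic fibroblasts, which the methods derive from fetuses without heads, limbs and viscera, and none of the labels states that these feeder cells were removed before the RNA was taken. The methods give more leukemia inhibitory factor for the teratoma-derived cells than for the parental ESCs, while the labels give the same amount. The effect of this on the values was not tested. Each condition outside the co-injection pair was 1 array of 1 line, so the differences below have no replicate check of their own. In this section they are given without p-values, and those of the limma fit named next stand only in the closing sections. A limma fit, whose only residual degree of freedom comes from the co-injection pair, was run as an alternative and called no Hox gene. A gene was called higher or lower when it differed more than 2-fold, that is, by more than 1 on the log2 scale, which is the rule in the methods of the study. The array medians lay between 7.48 and 7.54. The batches of the co-injection pair differed by a median of 0.04 and at most 0.20 over the 37 Hox genes, against a median of 0.07 over all genes. That pair is the only measure of spread in these arrays, and the labels do not say whether its 2 lines came from separate animals. Probe sets differ in how strongly they bind, so the levels of different genes were not set against each other, only their differences between arrays.

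In the heterologous array, 12 of the 37 Hox genes were higher than in parental ESCs and 1 was lower, where 3.98% of all genes were higher and 1.95% lower. Among the 9921 genes with a mean value in the range of the Hox genes (5.82 to 8.75), 4.86% were higher and 2.11% lower. The higher genes were not spread evenly: 5 of 9 were in cluster B, 4 of 9 in cluster C, 3 of 10 in cluster A and 0 of 9 in cluster D. The median difference was 1.04 in cluster B, 0.75 in A, 0.51 in C and 0.06 in D, against -0.04 over all genes. This order rests in part on dim probe sets: over the 8 Hox genes with a mean above the table median (7.49) it was 1.99 in C (1 gene), 1.47 in B (4 genes) and 0.47 in A (3 genes), with no gene of D. Hoxb2 passed this filter only through the heterologous array. With the filter on the mean of the other 4 arrays, cluster B had a median of 1.04 (3 genes). Against the homologous array the medians were 0.96 in B, 0.63 in A, 0.55 in C and 0.18 in D, and 0.35 over the posterior genes. By paralog number, 4 of 7 anterior genes (median 1.04), 7 of 14 central genes (median 0.94) and 1 of 16 posterior genes (median 0.17) were higher. The last higher gene was Hoxa7 in cluster A, Hoxb5 in cluster B and Hoxc10 in cluster C. Beyond it, the highest of the 9 genes of paralogs 11 to 13, a range picked after the values were seen, was Hoxd13 at 0.29. Spearman's rho between paralog number and difference was -0.62 over the 28 genes of clusters A to C and 0.35 over the 9 genes of cluster D. These coefficients are a description: the genes share the same arrays and neighbouring genes are not independent.

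**Figure D1:**
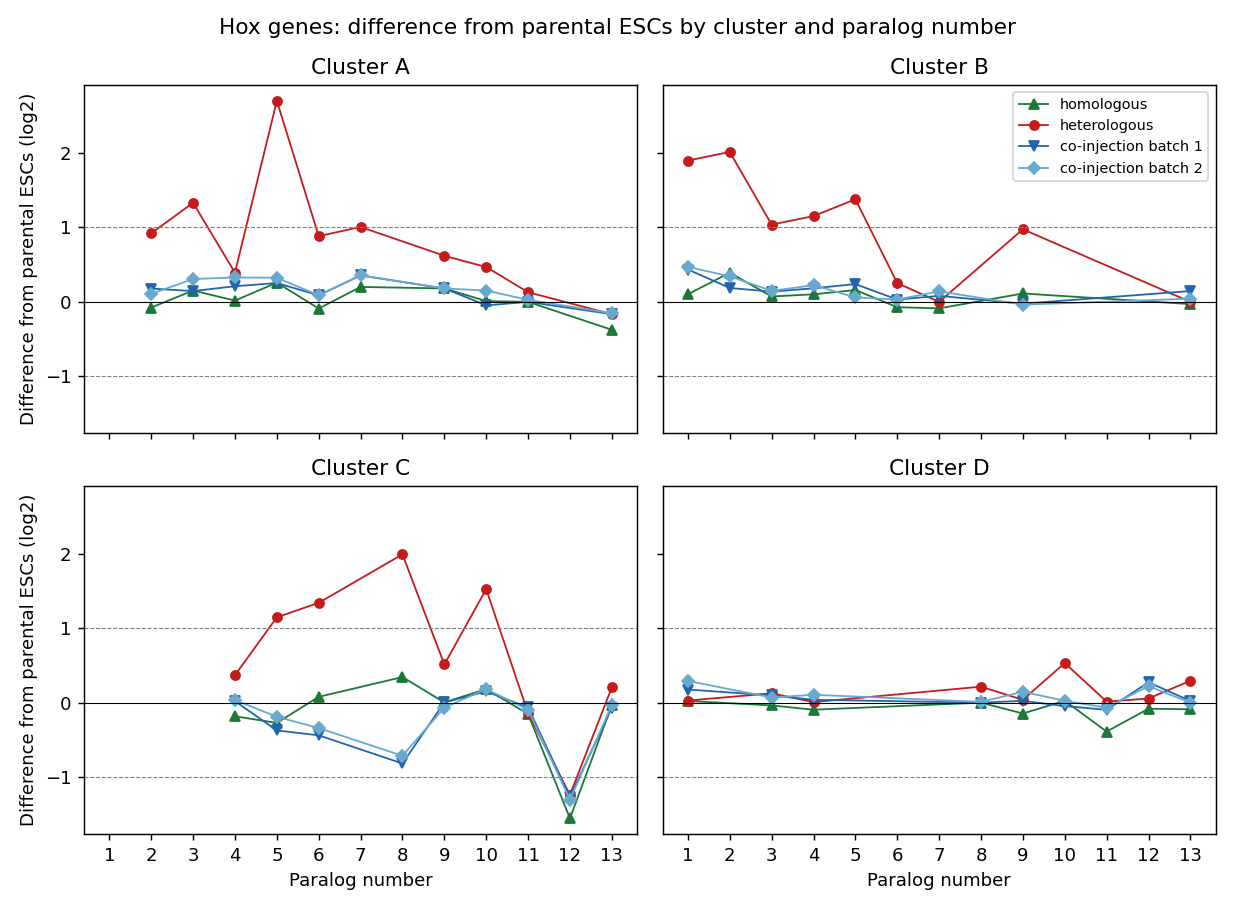
Log2 difference from parental ESCs (y axis) against paralog number (x axis) in each Hox cluster, for the 4 arrays of teratoma-derived cells; points are single arrays and dashed lines mark 2-fold. The last heterologous point above the dashed line is paralog 7 in cluster A, 5 in cluster B and 10 in cluster C, and the points of cluster D stay at or below 0.53, while Hoxc12 is lower in all 4 arrays.

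The cluster B genes at the low-numbered end formed an unbroken run of 5 higher genes from Hoxb1 to Hoxb5. Hoxb1, which gives the fourth segment of the hindbrain its identity and responds directly to retinoic acid, read 8.17 in parental ESCs, 8.27 in homologous, 10.06 in heterologous and 8.60 and 8.64 in the co-injection cells. Only the heterologous array stood far from the others, at 1.90 above parental ESCs (3.72-fold), although both co-injection arrays also lay about 0.45 above parental ESCs. The co-injection arrays differed by 0.04, which does not measure the spread of the single parental array. Hoxb2, its neighbour, which also acts in the hindbrain, read 7.15, 7.54, 9.16, 7.33 and 7.49 in the same order of arrays. The heterologous value was 2.01 higher than in parental ESCs (4.03-fold), and the homologous value was 0.39 higher, the largest Hox difference of the homologous array in that direction.

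Hoxb3, a gene of the posterior hindbrain and pharyngeal arches, read 8.05, 8.12, 9.08, 8.18 and 8.19 in parental, homologous, heterologous and the co-injection arrays, a heterologous difference of 1.04. Hoxb4, known for expanding blood stem cells when it is overexpressed, read 6.38, 6.48, 7.53, 6.56 and 6.61, a difference of 1.15. Hoxb5, which takes part in the development of the neural crest of the gut, read 6.45, 6.61, 7.83, 6.69 and 6.51, a difference of 1.38. In all of these genes the other 4 arrays lay close together below the heterologous one. The run ended at Hoxb6 (0.25) and Hoxb7 (0.00). Hoxb9, a thoracic gene, read 7.95, 8.07, 8.93, 7.93 and 7.92, a heterologous difference of 0.97, just under 2-fold. Hoxb13, which is set apart from the rest of the cluster by a long gap, differed by 0.00. The probe set shared by Hoxb8 and Hoxb7 read 6.88, 7.15, 7.84, 7.04 and 6.94, a heterologous difference of 0.96 that cannot be assigned to either gene, while the probe set of Hoxb7 alone read 7.44, 7.35, 7.44, 7.52 and 7.58.

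Cluster A held the largest difference of all Hox genes. Hoxa5, which patterns the neck and upper thorax and is required for lung development, read 6.74 in parental ESCs, 7.0 in homologous, 9.44 in heterologous and 7.0 and 7.07 in the co-injection cells. It was 2.70 higher in the heterologous array than in parental ESCs (6.49-fold), and the other teratoma-derived arrays lay 0.25 to 0.32 above parental ESCs. Hoxa3, required for the thymus and parathyroid glands, read 6.56, 6.72, 7.89, 6.71 and 6.87, a heterologous difference of 1.33. Hoxa7, a thoracic gene, read 7.41, 7.61, 8.41, 7.76 and 7.76, a heterologous difference of 1.01 that was the smallest among the called genes.

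The genes between these were less changed, so that the profile along cluster A had a peak at paralog 5 rather than an even slope. Hoxa2, which specifies the second pharyngeal arch, read 6.16, 6.08, 7.08, 6.34 and 6.26 (difference 0.92). Hoxa4 differed by 0.39, Hoxa6 by 0.88, Hoxa9 by 0.62 and Hoxa10, a gene of the lumbar spine and uterus, by 0.47. Hoxa11 (0.13) and Hoxa13 (-0.16), which act in the forearm and the digits, were within 0.2 of parental ESCs. Paralog 5, which has no gene in cluster D, was the only paralog group in which every measured gene was higher: Hoxa5 by 2.70, Hoxb5 by 1.38 and Hoxc5 by 1.15.

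Cluster C, which has no gene of paralogs 1 to 3, differed from A and B in that its higher genes lay in the central part and reached into the posterior part. Hoxc8, a gene of the thorax and of motor neurons to the forelimb, read 8.18 in parental ESCs, 8.52 in homologous, 10.17 in heterologous and 7.36 and 7.47 in the co-injection cells. It was 1.99 higher in the heterologous array (3.97-fold) and differed by -0.82 and -0.71 in the co-injection arrays, so that heterologous and co-injection cells lay on opposite sides of parental ESCs and differed by 2.76. Hoxc6, which marks the start of the thorax in several vertebrates, read 6.75, 6.83, 8.09, 6.31 and 6.41. It was 1.34 higher in the heterologous array and differed by -0.44 and -0.34 in the co-injection arrays. Hoxc5 read 6.60, 6.32, 7.74, 6.22 and 6.41. It was 1.15 higher in the heterologous array and differed by -0.27, -0.37 and -0.19 in the others. None of the negative differences of these 3 genes reached 2-fold.

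Hoxc10, a gene of the lumbar spinal cord and hind limb, was the only posterior gene that was higher. It read 6.57, 6.76, 8.10, 6.72 and 6.76, a heterologous difference of 1.52. Its neighbours Hoxc9 (0.51) and Hoxc11 (-0.14) did not pass, nor did Hoxc4 (0.37) or Hoxc13 (0.20). Hoxc12 read 8.35 in parental ESCs and 6.80, 7.12, 7.09 and 7.05 in the 4 teratoma-derived populations (homologous, heterologous, co-injection batch 1 and batch 2). Here the parental array stood apart from all 4 others, and Hoxc12 was the 1 Hox gene called lower in each comparison with it, with differences of -1.55 for homologous, -1.24 for heterologous and -1.28 for co-injection cells (mean of 2 arrays). These comparisons share the single parental array, and against the homologous array the heterologous value was 0.32 higher.

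**Figure D2:**
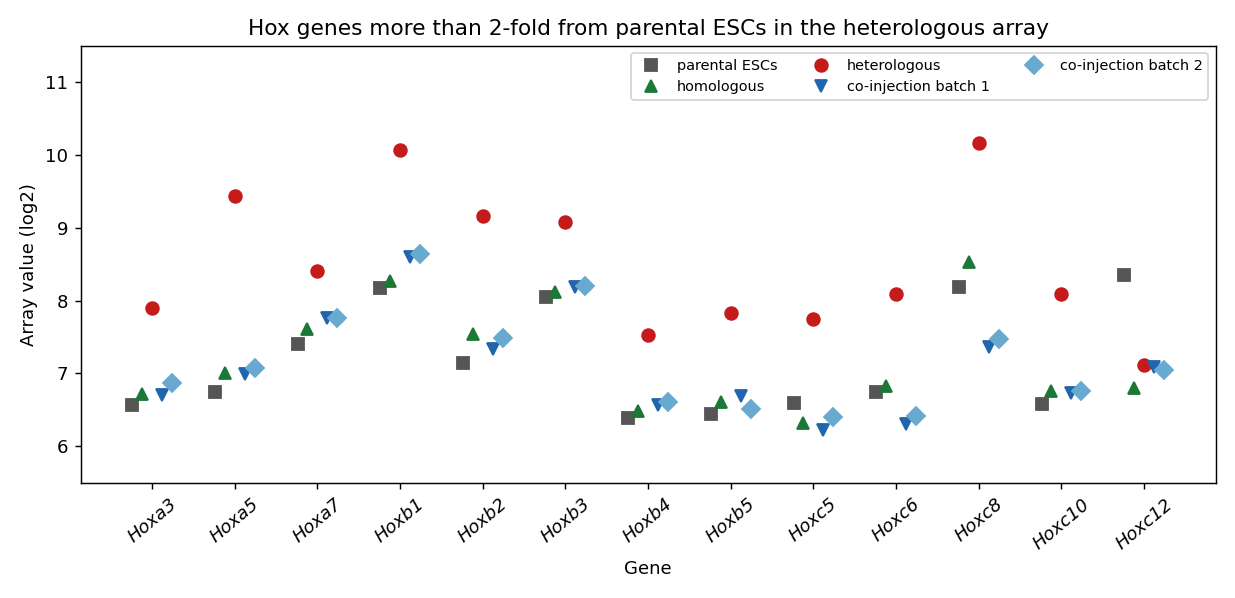
Array values (log2, y axis) of the 13 Hox genes that differed more than 2-fold between the heterologous array and parental ESCs (x axis), with 1 symbol for each of the 5 arrays. The heterologous circle is the highest symbol of its gene in all 12 genes other than Hoxc12, where the parental square stands alone at 8.35.

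In each of the 12 higher genes the heterologous array was the highest of the 5, by 0.65 to 2.37 over the next array. Across the members it was the highest in 28 of 37, against 19.2% of all genes, and it was above the homologous array in 37 of 37, against 42.5% of all genes. With the arrays rescaled by cyclic loess, an alternative scaling, it was the highest in 30 of 37 members (29.1% of all genes) and above the homologous array in 37 of 37 (55.7% of all genes). In the deposited values the gap over the homologous array had a median of 0.46 and went down to 0.005 (Hoxd1), so that count includes gaps close to none. Dim values limit these readings: 29 of the 37 members, and 7 of the 12 higher ones, had mean values below the median of the table (7.49), a range in which array values generally respond less to RNA. In 14 of the 37 members at least 2 arrays had exactly the same value, as in 30.2% of all genes.

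Cluster D, whose genes pattern the trunk and, at the posterior end, the limbs and digits, had no gene past 2-fold in any comparison with parental ESCs. Its lowest difference was that of Hoxd11 in the homologous array (-0.39), and its highest was that of Hoxd10 in the heterologous array, which read 7.02 in parental ESCs, 7.04 in homologous, 7.55 in heterologous and 6.97 and 7.04 in co-injection cells, a difference of 0.53. The anterior genes that were higher in the other clusters had counterparts here that were not: Hoxd1 read 6.54, 6.56, 6.57, 6.72 and 6.83, and Hoxd3 read 6.99, 6.95, 7.12, 7.09 and 7.06. The other differences were 0.01 for Hoxd4, 0.21 for Hoxd8, 0.04 for Hoxd9, 0.01 for Hoxd11, 0.06 for Hoxd12 and 0.29 for Hoxd13. In the 3 paralog groups with a measured gene in every cluster, the order of the clusters was B, A, C and D for paralog 9 (0.97, 0.62, 0.51 and 0.04) and for paralog 4 (1.15, 0.39, 0.37 and 0.01). For paralog 13 it was D, C, B and A (0.29, 0.20, 0.00 and -0.16). The rule placed Hoxa7 (1.01) and Hoxb3 (1.04) just inside the 2-fold limit and Hoxb9 (0.97) and Hoxa2 (0.92) just outside it.

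Few Hox genes passed the 2-fold limit in the homologous and co-injection cells. In the homologous array 0 of the 37 Hox genes were higher than in parental ESCs and 1, Hoxc12, was lower, where 1.45% of all genes were higher and 1.6% lower. The median Hox difference was 0.00. In the co-injection cells (mean of 2 arrays) 0 were higher and 1, again Hoxc12, was lower, where 0.647% of all genes were higher and 1.44% lower, and the median was 0.08. Below the limit, the co-injection differences of clusters A to C also fell with paralog number (rho -0.57 over 28 genes), as did those of the homologous array (rho -0.30), but all 3 comparisons share the parental array. With the homologous array as reference, rho over these 28 genes was -0.17 for the co-injection mean and -0.65 for the heterologous array. Against the homologous array, the heterologous array had 10 Hox genes higher and 0 lower, where 2.41% and 0.647% of all genes were. The co-injection mean, in turn, had 10 Hox genes lower and 0 higher than the heterologous array, where 2.99% and 0.361% of all genes were. All of these comparisons draw on the same heterologous array and are not independent of each other.

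The DNA at the starts of these genes is shown for 4 of the 5 higher members that have an entry in the RefSeq promoter table (GRCm38.p6), largest difference in each cluster first, so that the start regions of genes that were high together can be read side by side. The table had entries for 21 of the 37 members (23 windows), among them Hoxa5, Hoxb1, Hoxa3, Hoxb4 and Hoxa7. The last of these had the smallest difference (1.01) and is not printed. Each window runs from 250 bases before to 50 bases after the start of the gene and is given 5′ to 3′ on the strand of the gene. Hoxa5 is at chr6:52204538-52204837 (minus strand), Hoxb1 at chr11:96365508-96365807 (plus strand), Hoxa3 at chr6:52213018-52213317 (minus strand) and Hoxb4 at chr11:96318017-96318316 (plus strand). Capitals mark matches on either strand to AGGTCA (a repeat unit bound by retinoic acid receptors), TTTATG (Cdx factors), TATAAA (the TATA box), TGATNNAT (Pbx and Hox dimers) and CCAAT (the CCAAT box).
Hoxa5: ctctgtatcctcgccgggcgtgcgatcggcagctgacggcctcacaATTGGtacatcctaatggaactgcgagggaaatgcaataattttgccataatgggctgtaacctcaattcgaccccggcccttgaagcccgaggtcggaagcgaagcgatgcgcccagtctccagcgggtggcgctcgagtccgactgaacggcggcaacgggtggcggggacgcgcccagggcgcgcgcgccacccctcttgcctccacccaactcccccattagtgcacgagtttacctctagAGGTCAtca
Hoxb1: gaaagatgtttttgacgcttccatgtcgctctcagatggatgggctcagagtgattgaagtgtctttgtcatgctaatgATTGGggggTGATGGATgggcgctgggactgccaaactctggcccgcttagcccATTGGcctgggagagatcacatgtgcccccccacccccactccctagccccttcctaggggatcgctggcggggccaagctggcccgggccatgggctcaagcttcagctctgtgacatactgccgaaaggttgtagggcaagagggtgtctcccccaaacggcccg
Hoxa3: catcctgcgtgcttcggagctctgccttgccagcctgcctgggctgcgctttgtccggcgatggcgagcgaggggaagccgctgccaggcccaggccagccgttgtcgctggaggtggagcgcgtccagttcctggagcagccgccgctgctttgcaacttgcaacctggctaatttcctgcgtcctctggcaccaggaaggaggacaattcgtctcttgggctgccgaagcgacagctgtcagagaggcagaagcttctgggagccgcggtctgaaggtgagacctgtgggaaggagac
Hoxb4: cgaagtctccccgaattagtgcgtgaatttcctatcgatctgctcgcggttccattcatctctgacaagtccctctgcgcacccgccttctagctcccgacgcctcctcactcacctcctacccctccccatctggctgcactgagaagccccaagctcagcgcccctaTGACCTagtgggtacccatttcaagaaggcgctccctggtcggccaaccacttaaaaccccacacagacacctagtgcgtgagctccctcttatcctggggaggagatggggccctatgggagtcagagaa
The Hoxa5 window held 1 AGGTCA and 1 CCAAT match, the Hoxb1 window 1 TGATNNAT and 2 CCAAT matches, the Hoxb4 window 1 AGGTCA match and the Hoxa3 window none of the 5 motifs. On the minus strand the Hoxa3 window lies upstream of that of Hoxa5, so it is a distant start of the long Hoxa3 locus. No other start of Hoxa3 was read. The Hoxa7 window held 2 TTTATG matches and no other. Of all 32851 windows, 16.3% held AGGTCA, 11.9% TTTATG, 13.6% TATAAA, 8.85% TGATNNAT and 37.4% CCAAT, and of the 23 Hox windows 7, 4, 3, 3 and 14 did. The Hox windows held a median of 15 CpG, the dinucleotide of CpG islands, against 7 over all windows, and ranged from 4 to 45. Of all windows, 34.6% held at least 15. The 5 windows of higher Hox genes had a median of 14 CpG and the 18 windows of the other Hox genes 17.5. The 4 windows shown held 29 (Hoxa5), 10 (Hoxb1), 20 (Hoxa3) and 14 (Hoxb4), and that of Hoxa7 held 9. A match is a run of letters and no evidence of binding.

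The genes next to the clusters had few calls. Of the 40 measured genes next to the clusters, 5 at each end, 0 were higher in the heterologous array than in parental ESCs and 1 was lower. Over all genes 3.98% were higher and 1.95% lower, so these counts are near that share in a list of this size. Their median difference was -0.09, and the highest, that of Skap2 beside cluster A, was 0.30. The lower one was Calcoco2, an autophagy receptor gene beyond Hoxb13, which read 9.57 in parental ESCs, 7.87 in homologous, 7.59 in heterologous and 8.27 and 8.17 in co-injection cells. As with Hoxc12, the parental array stood apart from the rest. The even-skipped homeobox genes at the posterior ends of clusters A and D differed by -0.22 (Evx1) and -0.13 (Evx2).

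Of the other transcripts inside the clusters, 1 moved with the Hox genes around it. The non-coding RNA 5730596B20Rik, whose locus in the GRCm38.p6 annotation lies between the start and the end of the long Hoxa3 locus, read 6.52 in parental ESCs, 6.38 in homologous, 7.80 in heterologous and 6.50 and 6.59 in co-injection cells. It was high in the heterologous array alone, 1.28 above parental ESCs. Hoxaas2, also in cluster A, differed by 0.36. The microRNA probe sets did not pass, at 0.15 for Mir10a, 0.00 for Mir10b, -0.10 for Mir196b and -0.17 for Mir615. The non-coding RNA Hottip, at the posterior end of cluster A, differed by -0.09, and Haglr, inside cluster D, by -0.14.

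**Figure D3:**
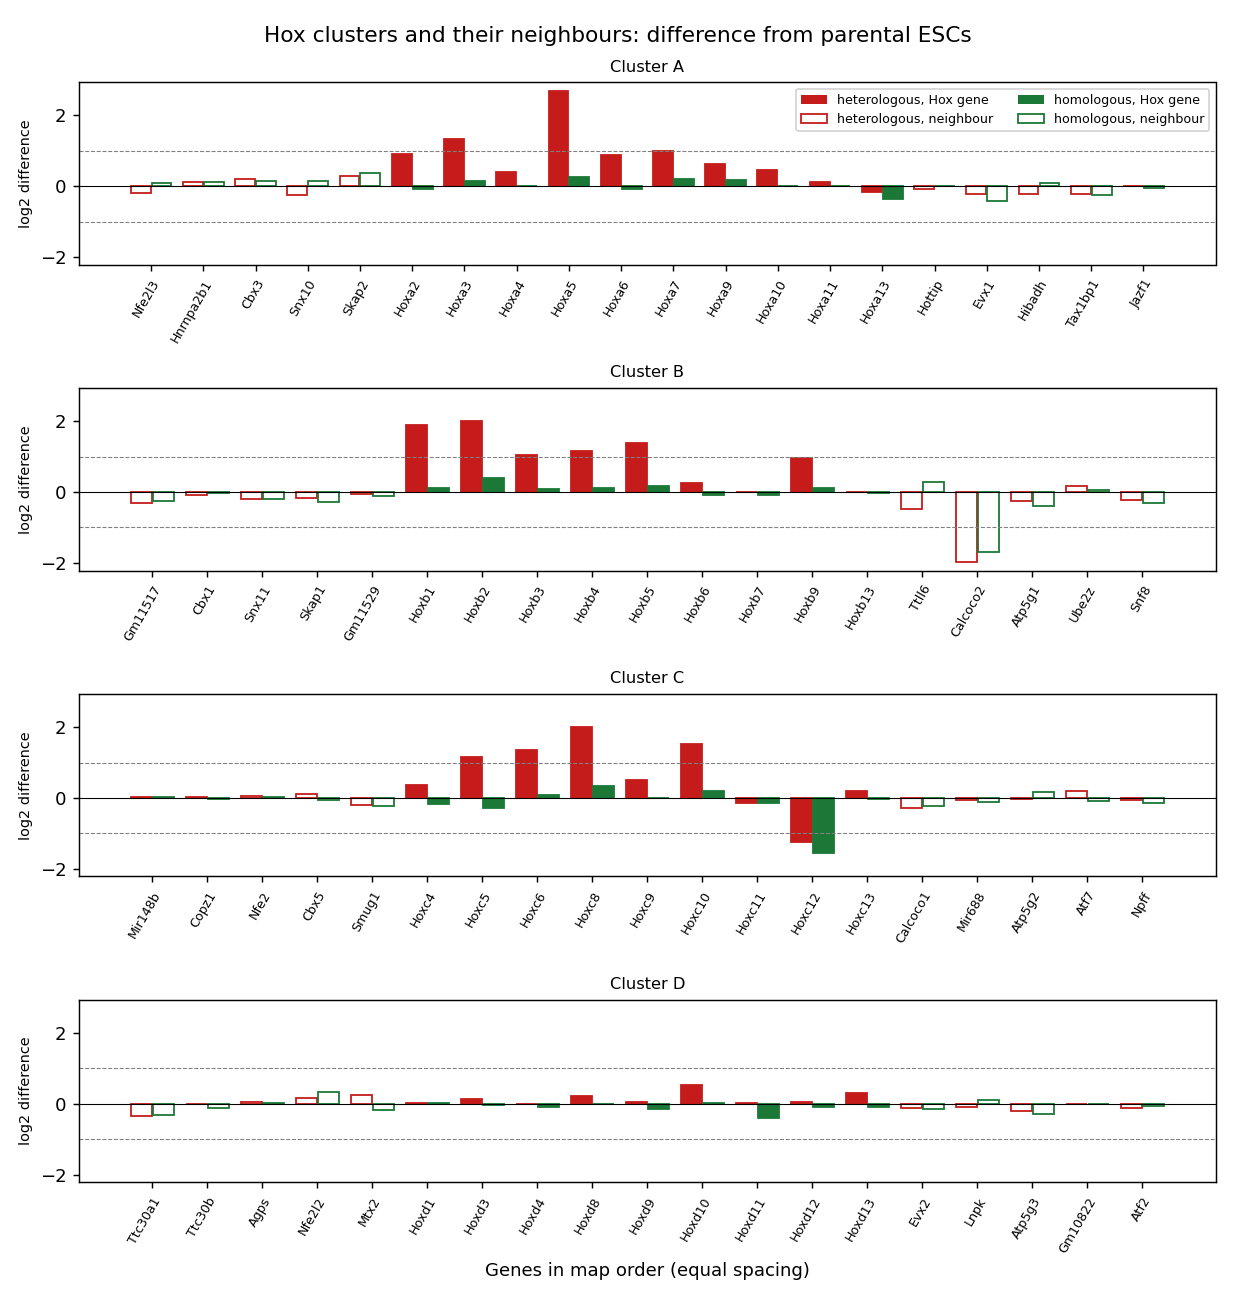
Log2 difference from parental ESCs (y axis) of the Hox genes (filled bars) and the 5 named genes next to each cluster end (open bars), in map order with equal spacing (x axis), in the heterologous (red) and homologous (green) arrays; dashed lines mark 2-fold. Red bars above 2-fold are all filled, and Calcoco2 beyond Hoxb13 is the 1 neighbour below it, in both arrays.

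Genes that work with or on the Hox clusters were compared in the same way. Of 8 measured TALE homeobox genes, which encode the DNA-binding partners of Hox proteins, 2 were higher in the heterologous array, and the median difference was 0.44. Meis2 read 8.19 in parental ESCs, 7.79 in homologous, 10.70 in heterologous and 7.53 and 7.51 in co-injection cells, so it was 2.52 higher in heterologous cells. It differed by -0.40 in homologous and by -0.66 and -0.67 in co-injection cells, none of which reached 2-fold. Meis1 read 6.79, 7.02, 8.13, 7.16 and 6.97, a heterologous difference of 1.35. The 3 measured Pbx genes (Pbx2, Pbx3 and Pbx4) differed by less than 2-fold in all comparisons, and Pknox2 was lower in the homologous array (-1.41) and the co-injection mean (-1.25) but not in the heterologous array, where it was 0.36 higher.

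Of 15 measured genes of the retinoic acid pathway 4 were higher in the heterologous array and none lower, with a median of 0.09. These were the binding proteins Crabp1 (1.25) and Crabp2 (1.02), the retinaldehyde reductase Dhrs3 (1.12) and the receptor Rarb (1.01). Dhrs3 and Rarb are both known to be induced by retinoic acid. Rarb read 6.33, 6.68, 7.34, 6.53 and 6.68. Rdh10, which makes retinaldehyde, read 8.34, 8.26, 9.22, 8.60 and 8.50 and stayed just under 2-fold (0.88). The 3 retinaldehyde dehydrogenases (Aldh1a1, Aldh1a2 and Aldh1a3) and the 3 degrading enzymes (Cyp26a1, Cyp26b1 and Cyp26c1) differed by -0.09 to 0.09, among them Cyp26a1, which is also known to be induced by retinoic acid. Against the homologous array 0 of the 15 genes passed, with Rdh10 at 0.96, Crabp1 at 0.95, Dhrs3 at 0.83, Rarb at 0.66 and Crabp2 at 0.65, so all 4 calls were lost with that reference. The co-injection mean was more than 2-fold below the heterologous array in 1 of the 15, Crabp1 (-1.12). No gene of the pathway passed in the homologous array or the co-injection mean. The Cdx genes and signals of the growing tail bud had 0 of 7 higher and 0 lower, with a median of -0.01, and Cdx2 read the same in the heterologous and parental arrays (7.77).

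No measured gene of the machinery that keeps the clusters silent or open passed 2-fold in the heterologous array. Over all genes 3.98% were higher and 1.95% lower, so few or no calls in lists of this size are near that share. Of 27 Polycomb genes 0 were higher and 0 lower in the heterologous array (median -0.15, from -0.73 for Mtf2 to 0.71 for Yaf2), and of 9 trithorax and H3K27 demethylase genes 0 were higher and 0 lower (median -0.20, with Kdm6a lowest at -0.85). Homeobox genes outside the clusters did not move as a body. Of 18 head homeobox genes 0 were higher and 1 was lower: Otx2, which marks the forebrain and midbrain, read 9.25, 9.73, 7.75, 9.60 and 9.30, a heterologous difference of -1.51. Of 27 other homeobox genes 2 were higher, Prrx1 (2.80), a gene of limb and connective tissue mesenchyme, and Irx5 (1.02), with a median of -0.04.

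The heterologous cells also differed from parental ESCs in markers of differentiated cells. Of 23 measured fibroblast genes 15 were higher in the heterologous array than in parental ESCs and 0 lower, with a median difference of 1.64. Their mean log2 value was 7.81 in parental ESCs, 8.16 in homologous, 9.45 in heterologous and 7.49 and 7.46 in co-injection cells. Against the homologous array 13 were higher and 0 lower. The 15 were the matrix genes Postn (3.30), Thbs2 (3.29), Lox (2.76), Mmp2 (2.70), Dcn (2.67), Col1a1 (2.33), Col1a2 (1.70) and Col6a3 (1.08), the receptors Pdgfrb (3.10) and Pdgfra (1.10), the transcription factors Prrx1 (2.80) and Twist2 (1.71), and Cdh11 (2.37), Thy1 (1.64) and Fap (1.39) of the cell surface. The lowest of the list was Tcf21 (-0.27). In the homologous array Mmp2 (1.91) and Pdgfrb (1.31) were higher. In the co-injection mean Mmp2 (1.25) was higher, and Lox (-2.04), Cdh11 (-1.90), Thy1 (-1.12) and Prrx1 (-1.07) were lower. Col1a1, a chain of the main collagen of connective tissue, read 8.88, 9.27, 11.21, 8.85 and 8.92. Thy1 read 9.27, 9.69, 10.91, 8.12 and 8.16, highest in heterologous and lowest in co-injection cells. Prrx1 stands in this list as well as among the homeobox genes. Over the arrays the fibroblast mean was highest in heterologous, next in homologous and lowest in co-injection cells. The single fibroblast genes did not all have this order. In Thbs2, Mmp2 and Twist2 the parental array was lowest, and in Dcn the homologous array (7.31) lay below the parental one (7.39). Among the 12 higher Hox genes only Hoxc8 and Hoxc6 had the order of the fibroblast mean. In Hoxa3, Hoxa5, Hoxa7, Hoxb1 to Hoxb5 and Hoxc10 it was the parental array that was lowest, and in Hoxc5 the parental array lay above the homologous one.

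Neural progenitor genes moved in part: 4 of 11 were higher, with a median of 0.31 and a mean log2 value of 7.61 in parental ESCs, 8.0 in homologous, 8.54 in heterologous and 7.92 and 7.95 in co-injection cells. They were Fabp7 (4.65), Nes (2.52), Pax6 (1.53) and Zic1 (1.27). Fabp7 (2.33) and Nes (1.28) were also higher in the homologous array, and Nes (1.00) in the co-injection mean. Of 10 paraxial mesoderm genes 1, Foxc2, was higher (1.78), and of 8 endoderm genes 0 were higher or lower. Of 6 endothelial genes 1 was lower (Pecam1, -1.44) and of 7 macrophage genes 1 was higher (Lyz2, 1.16), while Cd68 was lower in the homologous array (-1.31). Of 10 genes of pluripotent cells, which define the cells the labels name, 3 were lower (Zfp42 -1.63, Esrrb -1.18 and Fgf4 -1.11) and the median was -0.52. These 3 were also below parental ESCs in the homologous array (-0.78, -0.65 and -0.77) and the co-injection mean (-0.64, -0.57 and -0.82), and against the homologous array 0 of the 10 were lower in heterologous cells. Pou5f1 (Oct4), a core factor of pluripotency, read 12.60, 12.29, 12.32, 12.40 and 12.36 and so differed little between the arrays. Other genes of the list moved more, though by less than 2-fold. Nanog differed from parental ESCs by -0.60 in homologous cells, -0.72 in heterologous cells and -0.66 in the co-injection mean. Sox2 was lower in heterologous cells alone, with differences of 0.06, -0.60 and 0.01 in the same order. The part of fibroblasts, including feeder cells, and of neural cells in the Hox values was not tested, and in such bulk RNA a change in the share of a cell type and a change in RNA per cell cannot be told apart.

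**Figure D4:**
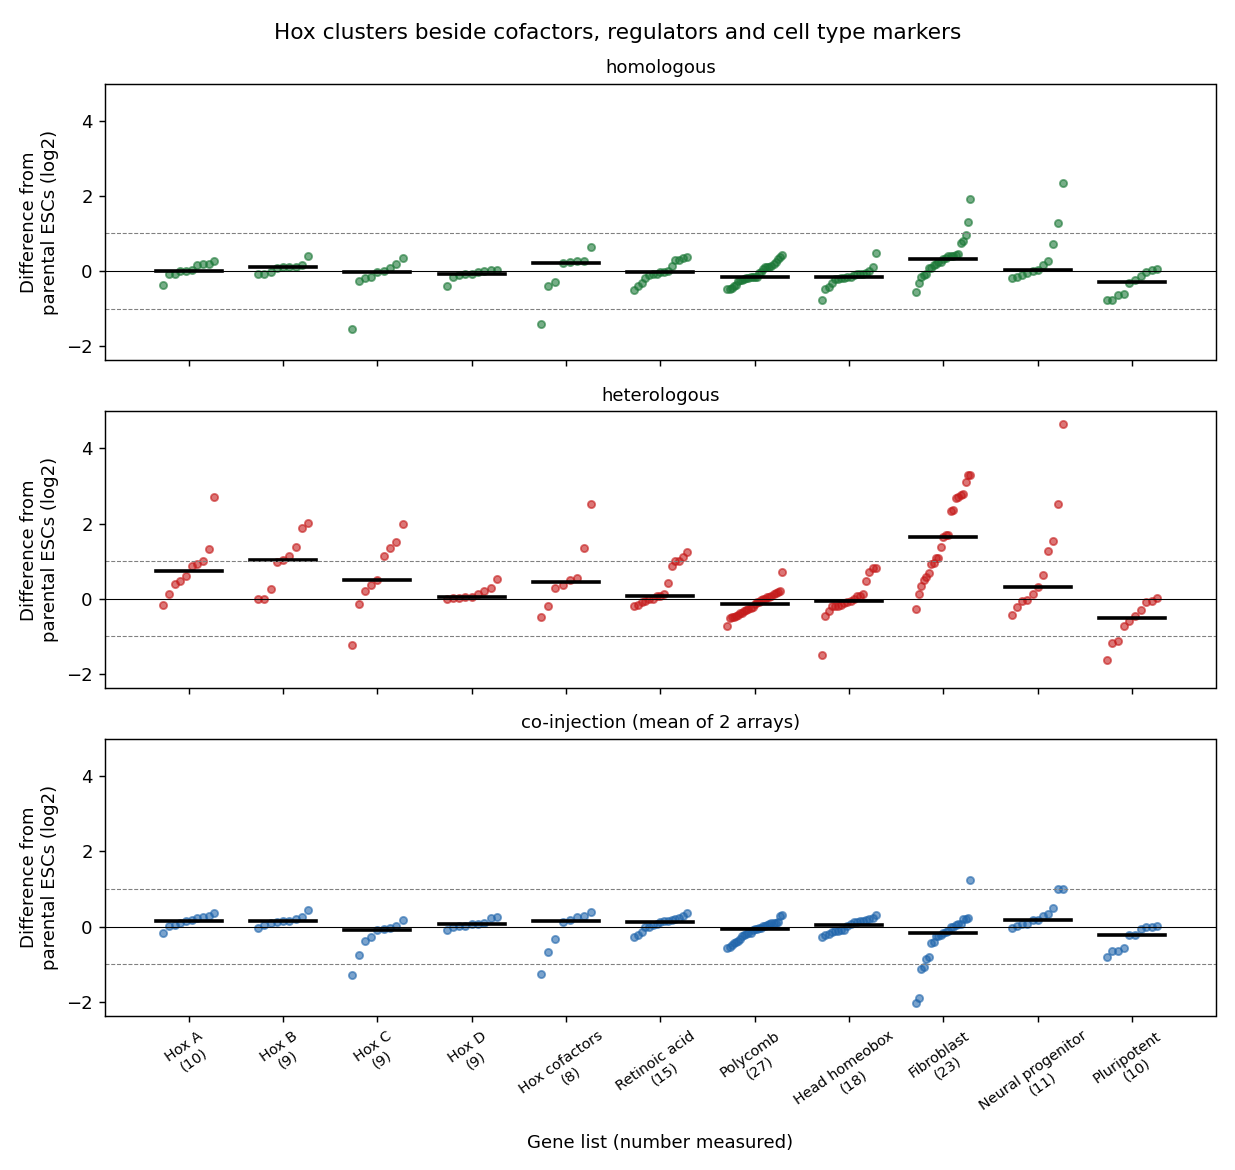
Log2 difference from parental ESCs (y axis) of each gene of the 4 Hox clusters and 7 other lists (x axis, number of genes measured in parentheses) in the homologous and heterologous arrays and the mean of the co-injection pair; points are genes, black bars are medians and dashed lines mark 2-fold. In the heterologous panel the fibroblast median (1.64) is the highest, followed by cluster B (1.04) and cluster A (0.75), while cluster D (0.06) lies with the retinoic acid (0.09) and Polycomb (-0.15) lists.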

How the data were processed

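RNA of 5 mouse cell populations was measured on Affymetrix Mouse Gene 1.0 ST arrays. The authors extracted intensities with GCOS, applied the robust multi-array average (RMA) algorithm with quantile normalization and deposited log2 values for 35556 probe sets; for both tools the version was not given in the sources used here. No further scaling was applied. Neither background correction nor slide was varied, as no scanner files were used. The number of arrays limits the precision.

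The platform annotation named the probe sets (21789 with 1 symbol, 1621 with several, 12146 with none), and the brightest 1-symbol probe set stood for each of 19938 genes. Genes without one were not analysed here. Cluster order, neighbours and promoters come from RefSeq GRCm38.p6. The build behind the array table is not stated. Groups follow the sample labels, and the 5 weeks after injection come from the methods of the study.

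Differences were taken between the log2 values of arrays, with the co-injection pair averaged. Hox genes past 2-fold in any comparison with parental ESCs, and the 2 nearest the limit on each side in the heterologous array, were given in full; of each list, the genes past 2-fold in a comparison with parental ESCs or the highest and lowest. Other genes named were chosen after their values were seen. The members and lists were chosen with earlier results of these data known.

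Alternatives were 1.5-fold and 3-fold limits, genes with means above the table median, cyclic loess, another reference array, each co-injection array alone, and limma 3.58.1. The limma fit (eBayes, Benjamini-Hochberg adjustment) used all 5 arrays, with 1 residual and 0.818 prior degrees of freedom. Its check on simulated data required only that the fit returned the differences put in, not that it called them. Python 3.11.15, pandas 2.3.3, numpy 2.4.6, matplotlib 3.10.9 and R 4.3.3 were used.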

Additional observations from a re-analysis of the deposited data

Results flagged for a closer look

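In 3 genes of cluster C the heterologous array and other teratoma-derived arrays lay on opposite sides of parental ESCs. For Hoxc8 the heterologous value was 2.76 above the co-injection mean, for Hoxc6 1.73 and for Hoxc5 1.43, with both co-injection arrays below parental ESCs in each. For Hoxc5 the homologous array was also below parental ESCs, and the heterologous value was 1.42 above it. In the limma fit, which has 1 residual degree of freedom and no replicate of the heterologous array, the adjusted p was 0.146 for each of the 3 genes between heterologous and co-injection cells and 0.194 for Hoxc5 between heterologous and homologous cells.

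The probe set of the non-coding RNA 5730596B20Rik, which is no Hox gene but lies inside cluster A, was 1.28 above parental ESCs in the heterologous array.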

How the results depend on the processing

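No limma contrast called a Hox gene: 0 of 37 passed an adjusted p of 0.05 in each, as did 0 of 35556 probe sets, and the smallest adjusted p among Hox genes was 0.109 for heterologous against parental ESCs. At an unadjusted p under 0.05, 25 Hox genes passed there, with 26.8% of all probe sets. With 1 residual degree of freedom this fit says nothing about stability.

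The 12 higher Hox genes of the heterologous array became 4 at 3-fold and 5 among genes above the table median, and were 16 at 1.5-fold and 13 after cyclic loess. The 10 above homologous became 4 and 3 under the first pair of settings. The 10 lower in co-injection than heterologous cells became 4 and 4. The 1 lower gene, Hoxc12, became 0 at 3-fold and among genes above the table median in all 3 comparisons, 0 with the co-injection mean in place of parental ESCs, and 2 at 1.5-fold in co-injection cells. With the homologous array as reference, an alternative chosen after seeing the data, the heterologous Hoxc12 difference turned to 0.32.

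Among genes above the table median, the heterologous median became 0.47 in cluster A, 1.47 in B, 1.99 in C, 1.90 for anterior, 1.01 for central and 0.72 for posterior genes, and cluster D had no gene left. Hoxb2 passed this filter only through the heterologous array (mean 7.38 in the other 4). With the filter on those 4 arrays, chosen after seeing the data, 4 genes were higher and 0 lower, and the medians were 0.47 in A, 1.04 in B, 1.99 in C (1 gene), 1.47 for anterior, 1.01 for central and 0.72 for posterior genes. Cyclic loess, which moved the median of all genes from -0.04 to 0.01, gave 0.81, 1.08, 0.57 and 0.12 in clusters A to D, 1.00 for central and 0.22 for posterior genes. Against homologous cells the values were 0.63, 0.96, 0.55 and 0.18, with 0.89 for central and 0.35 for posterior genes.

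Leaving out each co-injection array gave 9 to 10 genes lower than heterologous, 0 to 0 higher and 1 to 1 lower than parental ESCs. Averaging probe sets changed nothing, since each member has 1. No paired analysis was possible because the groups share fewer than 2 replicate numbers.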
